A study of Mus musculus with 16 samples.

Results

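The comparison described here is that of ethanol (EtOH) feeding with pair-feeding (PF) in fat-1 mice. It takes in the 9 libraries labelled Fat1+/- of the 16 libraries in the series: 5 from EtOH-fed and 4 from PF mice, with the group read from the labels alone. All 9 came from the ileum of male C57BL/6 mice, 8 to 10 weeks old at the start of feeding by the methods of the study, and littermates of wild-type mice. Both groups carried 1 copy of fat-1, an n-3 fatty acid desaturase gene of the worm Caenorhabditis elegans that is expressed in all tissues of these mice. The label is not the mouse gene Fat1. The transgene is not a row of the mouse count table, so the genotype was not checked here. EtOH-fed mice received a Lieber-DeCarli liquid diet whose EtOH content was raised over 6 weeks in steps from 1% to 6% (v/v), with the last 3 weeks at 6%. PF mice received an isocaloric control liquid diet, with maltose dextrin in place of EtOH, in the amount that EtOH-fed mice had eaten. RNA was taken from the terminal ileum, about 1.5 cm of gut, and sequenced as poly(A)-selected, stranded libraries. The PF libraries carry the numbers 3, 5, 6 and 7 and the EtOH libraries the numbers 9, 11, 13, 14 and 15, so that library order cannot be told apart from diet.

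The ileum is the last stretch of the small intestine. Its absorptive enterocytes carry digestive enzymes on a brush border, take up sugars, amino acids and fatty acids, pack fat into chylomicrons, and in this segment recover bile acids. Goblet cells secrete mucus, Paneth cells at the crypt base release defensins, and a wall of smooth muscle with enteric nerves lies underneath. EtOH is oxidised by alcohol dehydrogenases and, to a lesser degree, by cytochrome P450 enzymes and catalase. The fat-1 desaturase turns n-6 polyunsaturated fatty acids (PUFAs) into n-3 PUFAs, the precursors of a distinct family of lipid mediators.

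Values of single mice are CPM, the count divided by the library size after TMM scaling (edgeR's factor for differences in RNA composition) and given per 1000000, and fold changes are those of edgeR, EtOH over PF, on the log2 scale with their standard error (SE). The libraries held 8422645 to 10064410 counted reads in PF mice (median 8927419) and 9045041 to 11366935 in EtOH-fed mice (median 10111205), so that 3 counts amounted to 0.25 to 0.424 CPM. On this scale a listing of 0 allows up to the value of 3 counts, which covers counting error only. No pair of libraries of the same diet agreed within sampling noise.

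The libraries of both groups fell into 2 subsets each, and this has to stand before any result. On the first principal component of log2 CPM, which carried 58.1% of the variance, PF libraries lay between -61.6 and -39.7 and EtOH replicates 1, 2 and 5 between 1.3 and 4.17. EtOH replicates 3 and 4 lay at 97.0 and 95.2. PF replicates 2 and 4 stood apart from PF replicates 1 and 3 on the second component, at 45.4 and 31.9 against 0.745 and -2.29. The biological coefficient of variation was 0.252 between PF mice and 0.396 between EtOH-fed mice, and 0.25 among EtOH-fed mice without replicates 3 and 4.

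**Figure D1:**
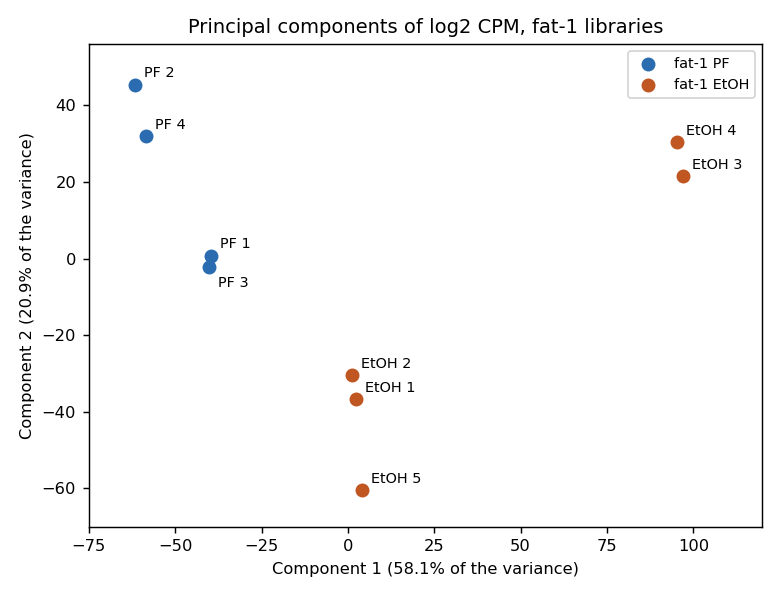
Principal components 1 and 2 of log2 CPM of the 9 fat-1 libraries, 1 point per library, with the share of variance on each axis. The PF libraries lie at the left, EtOH replicates 1, 2 and 5 in the middle at 1.3 to 4.17, and EtOH replicates 3 and 4 at the right at 97.0 and 95.2.

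The tissue label was checked against the markers of ileal bile acid handling, and these were not at one level in the 9 libraries. Fabp6, the bile acid binding protein of ileal enterocytes, stood at 1933, 26.3, 3918 and 3.33 CPM in PF replicates 1 to 4. In EtOH replicates 1 to 5 it stood at 5029, 4949, 119, 596 and 2394 CPM. Slc10a2, the apical bile acid transporter, stood at 694, 7.63, 680 and 3.57 CPM in PF mice and at 1417, 1394, 400, 540 and 956 CPM in EtOH-fed mice. Fgf15, the hormone that ileal enterocytes release on bile acid uptake, stood at 0.747, 0.141, 75.4 and 0 CPM in PF mice and at 27.96, 15.9, 0.0832, 0.272 and 4.46 CPM in EtOH-fed mice. All 3 were thus near the bottom of their range in PF replicates 2 and 4, and Fabp6 and Fgf15 were also low in EtOH replicates 3 and 4. None of the 3 passed the test between the diets, and 1 of the 11 tested members of the bile acid list did (9.09%, against 23.2% of all genes).

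Markers of the other gut regions that a segment could hold moved with the same libraries. The 14 large intestine markers summed to 102 to 285 CPM in PF mice, to 315 to 460 CPM in EtOH replicates 1, 2 and 5, and to 12086 and 13081 CPM in EtOH replicates 3 and 4. Of these 14, 6 passed the filter on low counts, some of them only through EtOH libraries in which they were high, so that their calls are not counted here. Car1, carbonic anhydrase 1 of the colon surface, stood at 0 to 13.7 CPM in PF mice, at 0.974 to 80.8 CPM in EtOH replicates 1, 2 and 5 and at 11319 and 12412 CPM in EtOH replicates 3 and 4. The Paneth cell list summed to 8451 to 30638 CPM in PF mice and to 12463 to 21962 CPM in EtOH replicates 1, 2 and 5, but to 164 and 161 CPM in EtOH replicates 3 and 4. Anpep, aminopeptidase N of the small intestinal brush border, stood at 6722 to 10954 CPM in PF mice, at 9212 to 11512 CPM in EtOH replicates 1, 2 and 5, and at 65.4 and 84.8 CPM in EtOH replicates 3 and 4. In bulk tissue, fewer cells of a type and less RNA per cell cannot be told apart. Position along the gut was not a factor of the labels, and its part in the differences below was not tested. Fits were therefore also made without EtOH replicates 3 and 4, without PF replicates 2 and 4, and without all 4.

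Of 13296 genes tested, 3086 differed between EtOH-fed and PF mice (23.2%; edgeR's quasi-likelihood test, Benjamini-Hochberg adjusted p of 0.05 or less). These differentially expressed genes (DEGs) were 1506 genes higher (11.3%) and 1580 lower (11.9%) with EtOH. A change of at least 2-fold was seen for 1273 DEGs (9.57%), 747 of those higher (5.62%) and 526 of those lower (3.96%). The 2 groups of mice did not overlap in CPM for 3243 of all genes tested (24.4%), and for 2629 of the DEGs (85.2%). The median log2 fold change over all genes tested was 0.06, and the smallest adjusted p was 0.00179. With upper-quartile scaling this median moved to 0.2 and the split of the DEGs to 2428 higher and 1112 lower (68.6% higher, against 48.8%).

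The number of DEGs was lower in fits without the libraries that stood apart, which also had fewer libraries. Without PF replicate 3, which did not stand apart, there were 2113 DEGs. Without EtOH replicates 3 and 4, 1856 genes were called (14%), 668 higher (5.04%) and 1188 lower (8.96%), and 1562 of the 3086 DEGs were among them with the same sign. Without PF replicates 2 and 4, 21 genes were called (0.15%), all of them lower, although 3149 genes had an unadjusted p under 0.05. Without all 4 libraries, which left 3 EtOH-fed and 2 PF mice, 354 genes were called (2.63%), 62 higher (0.461%) and 292 lower (2.17%). In these 3 fits, all of the DEGs that were tested kept their sign. Without PF replicates 2 and 4, the gene lists described below held few calls: 2 lower each in the brush border, gut transcription factor and fatty acid oxidation lists, and 1 lower each in the lipid absorption, P450, amino acid, adenosine, and mineral and vitamin lists. The other lists held 0 calls by edgeR in that fit, with 0 to 53 members at an unadjusted p under 0.05.

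The 21 genes that were lower even without PF replicates 2 and 4 included Lct, Fabp1, Gata4, Cyp2b10, Mbl2, Slc23a1, Acot12, Enpp3, Ephx2 and Slc36a1, and most of these are taken up below. They were named with their values known, apart from those that the rule for named genes gives.

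The deepest fall was that of Lct, lactase, the brush border enzyme that splits milk sugar. It stood at 802, 3001, 654 and 2011 CPM in PF mice and at 0.585, 2.35, 0.666, 0.635 and 0.175 CPM in EtOH-fed mice. Every EtOH-fed mouse was far below every PF mouse, those of replicates 3 and 4 no more than the others (log2 fold change -10.82, SE 0.88, adjusted p = 0.00179 by edgeR). Fabp1, which binds fatty acids in enterocyte cytosol, stood at 1878, 6475, 772 and 7545 CPM in PF mice and at 13.4, 8.35, 9.15, 7.53 and 15.99 CPM in EtOH-fed mice. It fell by 8.58 on the log2 scale (SE 0.79, adjusted p = 0.0022 by edgeR), and all 5 EtOH-fed mice again lay close together. Gata4, a transcription factor of the proximal and middle small intestine, stood at 75.8, 158, 60.3 and 144 CPM in PF mice and at 0.585, 1.13, 0, 0.0907 and 1.05 CPM in EtOH-fed mice (log2 fold change -7.55, SE 0.67, adjusted p = 0.00202 by edgeR). Mbl2, a mannose-binding lectin of the complement system, stood at 6.62 to 23.4 CPM in PF mice and at or under 3 counts in every EtOH-fed mouse, which makes it at least 56.9-fold lower.

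The other genes with the largest falls were enzymes and carriers. Cyp2b10, a cytochrome P450 that metabolises drugs, stood at 106, 310, 94.8 and 252 CPM in PF mice and at 0.585, 1.65, 0.333, 0.181 and 0.262 CPM in EtOH-fed mice (log2 fold change -8.27, SE 0.66, adjusted p = 0.00179 by edgeR). Slc23a1, the vitamin C transporter, stood at 47.5 to 158 CPM in PF mice and at 0 to 1.17 CPM in EtOH-fed mice. Ugt2a3, a glucuronosyltransferase, stood at 63.7 to 250 CPM against 0 to 1.83 CPM. Onecut2, a transcription factor of the upper small intestine, was at least 125-fold lower and Adh4, an alcohol dehydrogenase, at least 47.5-fold lower, both against the level of 3 counts per library. Onecut2 varied 1.38 to 75.0 CPM among PF mice, with PF replicates 2 and 4 at 46.0 and 75.0 CPM. Bbox1, the last enzyme of carnitine synthesis, had the same order, at 22.8, 61.4, 1.38 and 100 CPM in PF mice and at 0.195 to 0.454 CPM in EtOH-fed mice. Onecut2 and Bbox1 were not called without all 4 libraries that stood apart (adjusted p = 0.0627 and 0.106 by edgeR), while Lct, Fabp1, Gata4, Mbl2, Cyp2b10, Slc23a1, Ugt2a3 and Adh4 were.

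**Figure D2:**
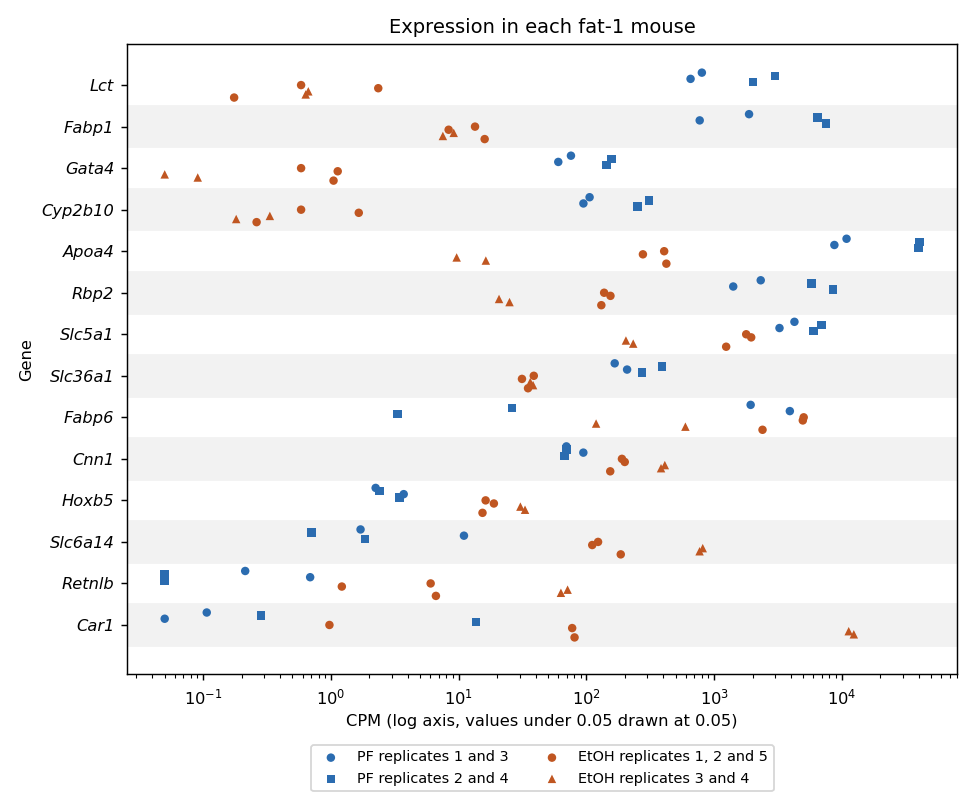
CPM of 14 genes in each fat-1 mouse on a log axis, 1 point per mouse, with values under 0.05 CPM drawn at 0.05. For Lct the EtOH-fed mice lie at 0.175 to 2.35 CPM and the PF mice at 654 to 3001 CPM, while Fabp6 and Car1 separate EtOH replicates 3 and 4 from the other EtOH-fed mice.

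Because Gata4 was among the genes with the largest falls, the promoters of these 10 genes were read for the letters of the GATA motif, AGATAA or TGATAA, on both strands. Of the 10 genes, 7 had a RefSeq promoter (GRCm38.p6), and 4 of these 7 held the motif in the 250 bases before the start (57.1%), against 11.9% of the 10480 tested genes with a promoter. Of the 10 genes with the largest rises, 7 had a promoter, and 1 of these held the motif (14.3%). The 4 promoters of the first set are printed 5′ to 3′ along the gene with the motif letters, or their reverse complement, in capitals. They are Lct (chr1:128328319-128328568, minus strand), Mbl2 (chr19:30232678-30232927, plus strand), Ugt2a3 (chr5:87337196-87337445, minus strand) and Bbox1 (chr2:110305726-110305975, minus strand).
Lct: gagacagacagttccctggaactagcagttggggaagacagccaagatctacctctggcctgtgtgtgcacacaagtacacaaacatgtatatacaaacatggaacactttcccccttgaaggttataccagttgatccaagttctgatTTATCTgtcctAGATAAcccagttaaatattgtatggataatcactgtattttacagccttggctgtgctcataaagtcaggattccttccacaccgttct
Mbl2: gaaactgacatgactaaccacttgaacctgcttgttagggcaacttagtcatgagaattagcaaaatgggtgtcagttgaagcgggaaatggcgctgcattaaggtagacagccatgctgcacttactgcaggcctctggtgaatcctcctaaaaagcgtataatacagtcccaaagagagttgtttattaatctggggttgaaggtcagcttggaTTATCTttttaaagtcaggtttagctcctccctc
Ugt2a3: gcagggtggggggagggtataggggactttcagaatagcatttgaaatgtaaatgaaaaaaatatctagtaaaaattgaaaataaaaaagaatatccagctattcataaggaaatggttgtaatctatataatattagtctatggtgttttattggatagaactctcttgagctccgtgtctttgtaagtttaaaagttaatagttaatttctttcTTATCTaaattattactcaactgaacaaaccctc
Bbox1: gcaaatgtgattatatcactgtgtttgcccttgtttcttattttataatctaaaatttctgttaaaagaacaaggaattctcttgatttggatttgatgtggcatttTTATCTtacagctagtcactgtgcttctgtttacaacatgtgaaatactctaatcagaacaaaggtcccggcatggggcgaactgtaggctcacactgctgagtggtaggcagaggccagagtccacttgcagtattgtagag

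Lct held 2 matches, which began 101 and 90 bases before the start on opposite strands. Mbl2 and Ugt2a3 each held 1 match, in both at 34 bases before the start, and that of Bbox1 lay at 143 bases. No match was found in the same window of Fabp1, Cyp2b10 and Adh4. Over all DEGs with a promoter the motif stood in 12.3% of those higher and in 13.5% of those lower. It stood in 7 of 21 promoters of the sugar list (33.3%) and in 3 of 18 of the lipid absorption list (16.7%), and in 13 of 63 of the oxidative phosphorylation list (20.6%). These are counts of letters, and binding was not measured.

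Of 24 tested members of the list of lipid absorption and chylomicrons, 10 were called lower and 0 higher (41.7% called, against 23.2% of all genes). The median log2 fold change was -1.66, and 3 members had one above 0. Apoa4, an apolipoprotein of chylomicrons, stood at 10888, 40705, 8743 and 39782 CPM in PF mice and at 407, 277, 9.65, 16.3 and 423 CPM in EtOH-fed mice. The groups did not overlap, and the lowest values were those of EtOH replicates 3 and 4 (log2 fold change -6.79, SE 1.3, adjusted p = 0.0108 by edgeR). Apoc3, another apolipoprotein, stood at 244 to 1110 CPM in PF mice, at 15.3 to 24.8 CPM in EtOH replicates 1, 2 and 5, and at 0.582 and 0.816 CPM in replicates 3 and 4. Fabp2, the intestinal fatty acid binding protein, stood at 7972 to 13807 CPM in PF mice and at 927 to 2998 CPM in EtOH-fed mice (log2 fold change -2.46, SE 0.41, adjusted p = 0.00781 by edgeR). The list summed to 45861, 88482, 49847 and 93959 CPM in PF mice and to 14904, 17157, 2903, 2911 and 12305 CPM in EtOH-fed mice. Called lower were 14 members without EtOH replicates 3 and 4, 11 without all 4 libraries and 1 without PF replicates 2 and 4.

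Vitamin A handling held 3 of 12 tested members lower and 0 higher, which is 25% against 23.2% of all genes. Called lower were 5 without EtOH replicates 3 and 4, 4 without all 4 libraries and 0 by edgeR without PF replicates 2 and 4, where 3 had an unadjusted p under 0.05. Rbp2, the cellular retinol-binding protein of enterocytes, stood at 2318, 5790, 1412 and 8509 CPM in PF mice and at 138, 154, 20.7, 25.03 and 131 CPM in EtOH-fed mice (log2 fold change -5.59, SE 0.85, adjusted p = 0.00713 by edgeR). Rdh7, a retinol dehydrogenase, and Bco2, a carotenoid-cleaving oxygenase, were also called lower, with log2 fold changes of -4.25 and -2.55. The list summed to 1830 to 9241 CPM in PF mice and to 309 to 431 CPM in EtOH-fed mice, whose 5 sums lay closer to each other than those of the 4 PF mice.

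Of 22 tested members of the list of sugar uptake, glycolysis and gluconeogenesis, 17 were called lower and 1 higher (81.8%, against 23.2% of all genes). The median log2 fold change was -1.46, and 4 members had one above 0. Slc5a1, the sodium-coupled glucose transporter of the brush border, stood at 4256, 6919, 3251 and 5984 CPM in PF mice and at 1784, 1952, 204, 233 and 1243 CPM in EtOH-fed mice (log2 fold change -2.24, SE 0.69, adjusted p = 0.0449 by edgeR). Slc2a2, the basolateral glucose transporter, stood at 571, 1110, 199 and 966 CPM in PF mice and at 16.6, 54.8, 0.166, 0.181 and 3.23 CPM in EtOH-fed mice. Slc2a7, a sugar transporter of the same family, and G6pc, glucose-6-phosphatase, were called lower, with log2 fold changes of -5.18 and -3.97. The common glycolytic enzymes Eno1, Ldha, Gapdh and Pgk1, named with their values known, were also called lower and had log2 fold changes of -1.08, -1.03, -1.0 and -0.76. The member called higher was Hk1, a hexokinase, at 12.02 to 16.5 CPM in PF mice, 19.8 to 30.8 CPM in EtOH replicates 1, 2 and 5, with 146 and 134 CPM in replicates 3 and 4. Its log2 fold change was 2.34, and 0.8 without those 2 libraries (adjusted p = 0.0354 by edgeR). The list held 17 members lower also without EtOH replicates 3 and 4, 9 without all 4 libraries and 0 by edgeR without PF replicates 2 and 4, where 14 had an unadjusted p under 0.05.

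Oxidative phosphorylation is carried out by the respiratory chain and ATP synthase of mitochondria. Of 77 tested nuclear-encoded subunits, 64 were called lower and 0 higher (83.1%, against 23.2% of all genes), and all 77 log2 fold changes were below 0, with a median of -0.71. In 52 of the 77 no EtOH-fed mouse reached the lowest PF mouse, which was so for 12.8% of all genes tested. Ndufa4, a subunit of cytochrome c oxidase, stood at 330, 440, 349 and 466 CPM in PF mice and at 193, 195, 147, 169 and 174 CPM in EtOH-fed mice (log2 fold change -1.17, SE 0.15, adjusted p = 0.00538 by edgeR). Atp5g3, a subunit of the membrane part of ATP synthase, stood at 826 to 1367 CPM in PF mice and at 420 to 496 CPM in EtOH-fed mice. Cox7a1, a cytochrome c oxidase subunit best known from muscle, fell most, from 73.0 to 145 CPM in PF mice to 21.6 to 38.2 CPM in EtOH-fed mice (log2 fold change -1.82, SE 0.23, adjusted p = 0.00538 by edgeR). Cox8a, the most abundant subunit per kb of exon, was not called (log2 fold change -0.5, adjusted p = 0.0782 by edgeR).

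The sum over the subunits was 21662, 30085, 22942 and 29121 CPM in PF mice and 15113, 15341, 15367, 17526 and 13645 CPM in EtOH-fed mice. EtOH replicates 3 and 4 lay with the other EtOH-fed mice here, and PF replicates 2 and 4 were the highest of all. Without EtOH replicates 3 and 4, 71 subunits were called lower, with a median of -0.79. Without all 4 libraries 15 were called lower (median -0.6), and without PF replicates 2 and 4 none was by edgeR (median -0.5), although 53 of the 77 had an unadjusted p under 0.05. With upper-quartile scaling 51 were called lower (median -0.57), and with limma voom 72. Cytoplasmic ribosomal proteins held 0 of 76 called members by edgeR and a median of -0.05, with 2 at an unadjusted p under 0.05 and 2 called by DESeq2. Rplp1, the most abundant per kb, stood at 889 to 1182 CPM in PF mice and 848 to 952 CPM in EtOH-fed mice.

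**Figure D3:**
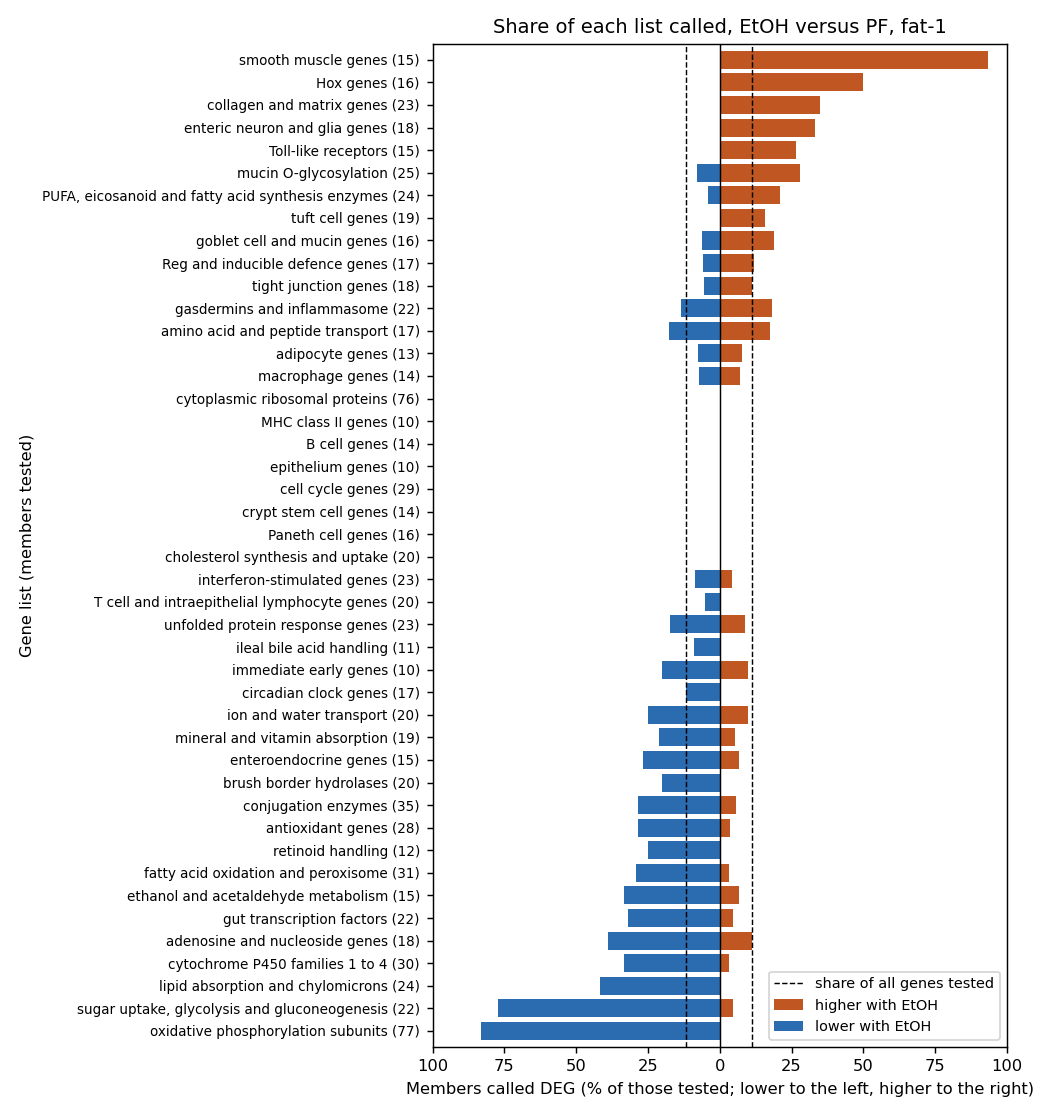
Share of the tested members of each gene list called DEG, in percent, lower with EtOH to the left and higher to the right, for lists with at least 10 tested members, whose number stands in brackets. Dashed lines mark the shares of all genes tested, 11.9% lower and 11.3% higher. Oxidative phosphorylation (64 of 77 lower), sugar (17 of 22 lower) and smooth muscle (14 of 15 higher) reach farthest.

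Fatty acid oxidation and the peroxisome held 9 of 31 tested members lower and 1 higher, which is 32.3% against 23.2% of all genes. Acot12, a cytosolic acetyl-CoA thioesterase, stood at 47.6, 78.0, 24.2 and 111 CPM in PF mice and at 1.07, 0.696, 1.17, 1.81 and 0.786 CPM in EtOH-fed mice, without overlap (log2 fold change -5.87, SE 0.49, adjusted p = 0.00179 by edgeR). Ephx2, soluble epoxide hydrolase, which degrades epoxides of PUFAs, stood at 254 to 1160 CPM in PF mice and at 50.6 to 77.4 CPM in EtOH-fed mice (log2 fold change -3.51, SE 0.46, adjusted p = 0.00538 by edgeR). Hao2, a peroxisomal hydroxy acid oxidase, was the member called higher, at 0.123 to 4.68 CPM in PF mice and at 9.44 to 16.6 CPM in EtOH replicates 1, 2 and 5, with 196 and 224 CPM in replicates 3 and 4. It was not called without those 2 libraries (adjusted p = 0.109 by edgeR). Without EtOH replicates 3 and 4, 19 members of the list were called lower and 0 higher, and without PF replicates 2 and 4, 2 were called lower.

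Enzymes that dispose of EtOH and of foreign compounds were lower in part. Of 15 tested genes of EtOH and acetaldehyde metabolism, 5 were called lower and 1 higher (40%, against 23.2% of all genes), with 4 lower and 0 higher without EtOH replicates 3 and 4 and 3 lower without all 4 libraries. Adh1, the main alcohol dehydrogenase of class I, stood at 197, 1445, 90.0 and 963 CPM in PF mice and at 30.4, 27.9, 93.4, 92.2 and 25.3 CPM in EtOH-fed mice. EtOH replicates 3 and 4 thus stood above the lowest PF mouse, and the groups overlapped (log2 fold change -3.65, SE 0.84, adjusted p = 0.0189 by edgeR). Without PF replicates 2 and 4, its highest libraries, the log2 fold change of Adh1 was -1.43 (adjusted p = 0.23 by edgeR). Adh6a, another alcohol dehydrogenase, stood at 259 to 1529 CPM in PF mice and at 1.27 to 25.4 CPM in EtOH-fed mice, without overlap. Cyp2e1, the P450 best known for oxidising EtOH, and Aldh2, the mitochondrial aldehyde dehydrogenase, were named with their values known. They had log2 fold changes of 1.06 (adjusted p = 0.329 by edgeR) and 0.11 (adjusted p = 0.612 by edgeR).

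Of 30 tested P450 genes of families 1 to 4, 10 were called lower and 1 higher (36.7%, against 23.2% of all genes), with 12 lower and 1 higher without EtOH replicates 3 and 4 and 7 lower without all 4 libraries. Cyp3a11, which metabolises drugs and bile acids, stood at 105 to 916 CPM in PF mice, at 5.68 to 28.9 CPM in EtOH replicates 1, 2 and 5, and at 0.416 and 0.181 CPM in replicates 3 and 4. Cyp2d34 was the member called higher and was above 2 CPM only in EtOH replicates 3 and 4, at 141 and 180 CPM. In PF mice it was at 0 to 0.275 CPM, so that it passed the filter on low counts only through EtOH-fed mice. Its call is part of the 36.7%, which carries that limit. Cyp2d34 did not pass that filter without EtOH replicates 3 and 4, and the member called higher in that fit was Cyp3a44, named with its values known (log2 fold change 2.24, adjusted p = 0.0429 by edgeR). Of 35 tested conjugation enzymes (glucuronosyl-, sulfo- and glutathione transferases), 10 were called lower and 2 higher (34.3%, against 23.2% of all genes), with 15 lower and 0 higher without EtOH replicates 3 and 4 and 5 lower without all 4 libraries. Gstm6, a glutathione transferase, stood at 14.9, 80.9, 7.43 and 57.9 CPM in PF mice and at 1.4 to 5.9 CPM in EtOH-fed mice. Sult1a1, a phenol sulfotransferase, stood at 4.38 to 9.61 CPM in PF mice and at 382 and 476 CPM in EtOH replicates 3 and 4, with 7.4 to 18.3 CPM in the other EtOH-fed mice. Its log2 fold change was 4.74, and 0.87 without replicates 3 and 4, where it was not called (adjusted p = 0.135 by edgeR). Members of the P450, glutathione transferase and glucuronosyltransferase families share sequence, so that single values are uncertain where the counting could divide reads between them. Among the nuclear receptors that control these enzymes, Nr1i3, the constitutive androstane receptor, stood at 36.3 to 185 CPM in PF mice and at 0.416 to 3.31 CPM in EtOH-fed mice (log2 fold change -5.83, SE 0.68, adjusted p = 0.00538 by edgeR).

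Antioxidant enzymes held 8 of 28 tested members lower and 1 higher, which is 32.1% against 23.2% of all genes. Gpx4, which reduces lipid peroxides, stood at 184, 366, 201 and 384 CPM in PF mice and at 83.2, 101.3, 69.1, 83.4 and 86.5 CPM in EtOH-fed mice (log2 fold change -1.74, SE 0.24, adjusted p = 0.0058 by edgeR). Prdx5, a peroxiredoxin, stood at 399 to 622 CPM in PF mice and at 166 to 257 CPM in EtOH-fed mice. Prdx1, the most abundant member per kb, stood at 997 to 1224 CPM against 392 to 705 CPM. The list summed to 5804 to 6667 CPM in PF mice and to 3748 to 4333 CPM in EtOH-fed mice, without overlap. Cbr2, a carbonyl reductase, was the member called higher, at 0.123 to 0.99 CPM in PF mice, 1.17 to 1.65 CPM in EtOH replicates 1, 2 and 5, with 6.98 CPM in replicate 4 and 5.82 CPM in replicate 3. Its log2 fold change was 2.8, and 1.53 without replicates 3 and 4, where it was not called (adjusted p = 0.0848 by edgeR). With every PF mouse under 1 CPM, Cbr2 passed the filter on low counts only through EtOH-fed mice, and its call carries that limit. Called lower were 11 members without EtOH replicates 3 and 4, 3 without all 4 libraries and 0 by edgeR without PF replicates 2 and 4, where 9 had an unadjusted p under 0.05.

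Of 20 tested brush border hydrolases, 4 were called lower and 0 higher, which is 20% against 23.2% of all genes. The 4 were Lct, Asah2, Enpp3 and Plb1. The median log2 fold change of the list was -1.48, 3 members had one above 0, and DESeq2 called 8 lower. In 11 members every EtOH-fed mouse was below every PF mouse, which was so for 12.8% of all genes tested. With Lct included, the sum of the list was 37758 to 44951 CPM in PF mice, 26500 to 38995 CPM in EtOH replicates 1, 2 and 5, but 2304 and 2619 CPM in replicates 3 and 4. Asah2, neutral ceramidase, fell in all, from 655 to 1111 CPM in PF mice to 66.3 to 90.8 CPM in EtOH replicates 1, 2 and 5 and to 16.1 and 15.5 CPM in replicates 3 and 4 (log2 fold change -3.97, SE 0.59, adjusted p = 0.00697 by edgeR). Enpp3, a nucleotide pyrophosphatase, stood at 111 to 778 CPM in PF mice and at 1.75 to 7.22 CPM in EtOH-fed mice. Plb1, a phospholipase of the brush border, stood at 392, 9.05, 918 and 0.616 CPM in PF mice and at 0.166 to 5.83 CPM in EtOH-fed mice, so that PF replicate 4 lay within the EtOH range. It was not called without EtOH replicates 3 and 4 (log2 fold change -6.84, and -6.14 in that fit, adjusted p = 0.088 by edgeR). Anpep was not called (log2 fold change -0.47, SE 1.24, adjusted p = 0.799 by edgeR). Called lower were 8 members of the list without EtOH replicates 3 and 4, 6 without all 4 libraries and 2 without PF replicates 2 and 4.

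Carriers of amino acids and of nucleosides gave calls in both directions. Of 17 tested genes of amino acid and peptide transport, 3 were called higher and 3 lower (35.3%, against 23.2% of all genes), with 2 higher and 6 lower without EtOH replicates 3 and 4 and 0 higher and 4 lower without all 4 libraries. Slc36a1, a proton-coupled amino acid transporter, stood at 167, 392, 208 and 273 CPM in PF mice and at 38.8, 31.3, 36.4, 38.3 and 35.0 CPM in EtOH-fed mice. The groups did not overlap, and EtOH replicates 3 and 4 lay among the other EtOH-fed mice (log2 fold change -2.86, SE 0.23, adjusted p = 0.00179 by edgeR). Slc6a14, a carrier of neutral and cationic amino acids best known from the colon and lung, stood at 1.71, 0.707, 11.01 and 1.85 CPM in PF mice and at 123.5, 111, 815, 770 and 186 CPM in EtOH-fed mice (log2 fold change 6.72, SE 1.14, adjusted p = 0.0082 by edgeR). Without EtOH replicates 3 and 4 its log2 fold change was 5.23 (adjusted p = 0.0144 by edgeR), and without all 4 libraries the adjusted p was 0.0598. Of 18 tested adenosine and nucleoside genes, 7 were called lower and 2 higher (50%, against 23.2% of all genes), with 6 lower and 0 higher without EtOH replicates 3 and 4 and 5 lower without all 4 libraries. Slc28a1, a concentrative nucleoside transporter, stood at 16.8 to 133 CPM in PF mice and at 0 to 3.39 CPM in EtOH-fed mice, and Ada, adenosine deaminase, at 392 to 2001 CPM against 90.8 to 174 CPM in EtOH replicates 1, 2 and 5, with 8.4 and 7.26 CPM in replicates 3 and 4. Adora2b, an adenosine receptor, stood at 4.8, 25.6, 3.17 and 27.95 CPM in PF mice and at 0.0974, 0.348, 2.0, 3.17 and 0.524 CPM in EtOH-fed mice. Of 19 tested genes of mineral and vitamin absorption, 4 were called lower and 1 higher, which is 26.3% against 23.2% of all genes, with 4 lower and 2 higher without EtOH replicates 3 and 4 and 2 lower without all 4 libraries. Among those lower was Slc46a1, the folate transporter, at 45.7 to 493 CPM in PF mice and 4.63 to 16.9 CPM in EtOH-fed mice. Of 20 tested genes of ion and water transport, 5 were called lower and 2 higher (35%, against 23.2% of all genes), with 6 lower and 0 higher without EtOH replicates 3 and 4 and 2 lower without all 4 libraries. Among those higher was Aqp8, a water channel, at 0 to 0.493 CPM in PF mice and 170 and 97.0 CPM in EtOH replicates 3 and 4. Aqp8 passed the filter on low counts only through EtOH-fed mice, and not without those 2 libraries, so that its call carries that limit. Aqp3, a water and glycerol channel, stood at 20.8, 55.1, 11.4 and 28.9 CPM in PF mice and at 1.07, 1.74, 6.41, 4.54 and 0.786 CPM in EtOH-fed mice (log2 fold change -3.31, SE 0.67, adjusted p = 0.0131 by edgeR).

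**Figure D4:**
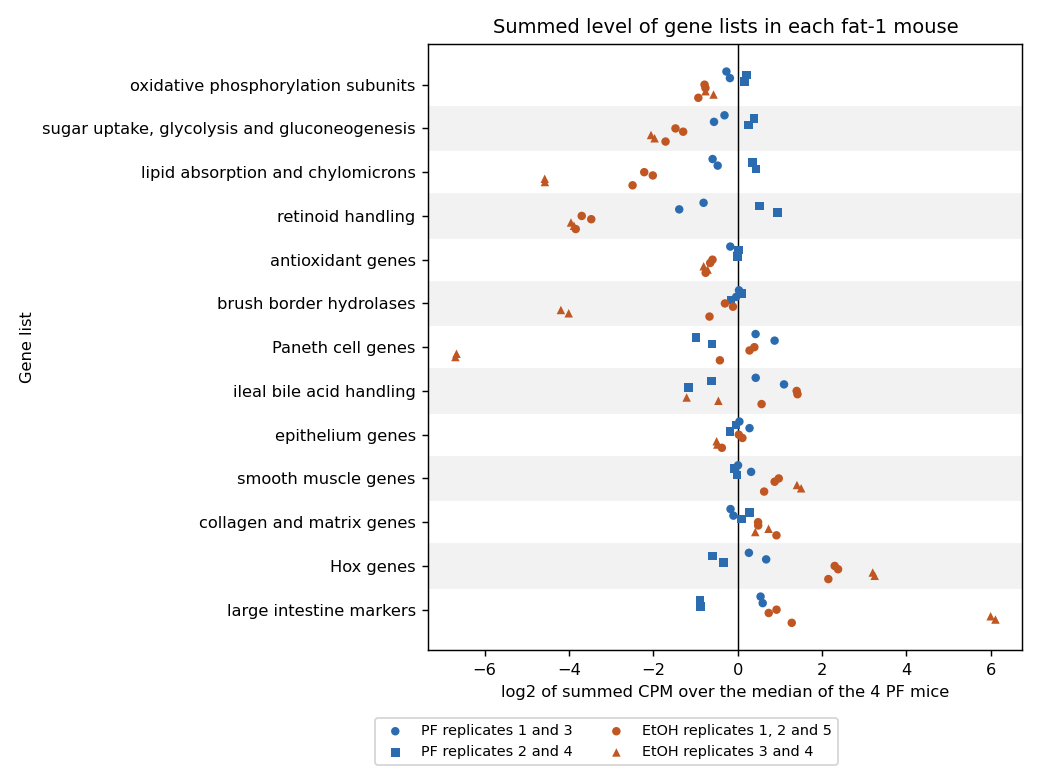
Summed CPM of 13 gene lists in each fat-1 mouse, as log2 of the ratio to the median of the 4 PF mice, 1 point per mouse. The oxidative phosphorylation, sugar, lipid, retinoid and antioxidant sums are lower in all 5 EtOH-fed mice than in any PF mouse. The brush border, Paneth cell and large intestine sums set EtOH replicates 3 and 4 apart.

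Of 15 tested smooth muscle genes, 14 were called higher and 0 lower (93.3%, against 23.2% of all genes), with a median log2 fold change of 1.08, and in 13 every EtOH-fed mouse was above every PF mouse, which was so for 11.6% of all genes tested. Cnn1, calponin, a regulator of smooth muscle contraction, stood at 69.8, 70.0, 94.7 and 67.2 CPM in PF mice and at 190, 200, 411, 384 and 154 CPM in EtOH-fed mice (log2 fold change 1.83, SE 0.33, adjusted p = 0.00881 by edgeR). Myh11, the smooth muscle myosin heavy chain, stood at 206 to 277 CPM in PF mice and at 447 to 986 CPM in EtOH-fed mice, and Actg2, enteric smooth muscle actin, at 89.1 to 168 CPM against 242 to 644 CPM. The list summed to 2316 to 3050 CPM in PF mice, to 3778 to 4806 CPM in EtOH replicates 1, 2 and 5, and to 6482 and 6941 CPM in replicates 3 and 4. Called higher were 12 members without EtOH replicates 3 and 4, 2 without all 4 libraries and 0 by edgeR without PF replicates 2 and 4, where 13 had an unadjusted p under 0.05.

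Other genes of the gut wall were called in part. Of 18 tested enteric neuron and glia genes, 6 were called higher and 0 lower (33.3%, against 23.2% of all genes), with a median of 1.28, and none was called by edgeR without EtOH replicates 3 and 4 (median 0.66), where 6 had an unadjusted p under 0.05. L1cam, an adhesion molecule of nerves and the most abundant member per kb, stood at 17.7 to 43.2 CPM in PF mice, at 48.0 to 57.2 CPM in EtOH replicates 1, 2 and 5 and at 114 and 104 CPM in replicates 3 and 4. Its log2 fold change was 1.35, and 0.85 without replicates 3 and 4 (adjusted p = 0.0913 by edgeR). Of 23 tested collagen and matrix genes, 8 were called higher and 0 lower (34.8%, against 23.2% of all genes), and 20 had a log2 fold change above 0. Called higher were 8 without EtOH replicates 3 and 4, 1 without all 4 libraries and 0 by edgeR without PF replicates 2 and 4, where 16 had an unadjusted p under 0.05. Postn, periostin, stood at 26.6, 15.98, 28.2 and 14.04 CPM in PF mice and at 74.8, 72.1, 160, 146 and 68.1 CPM in EtOH-fed mice (log2 fold change 2.3, SE 0.36, adjusted p = 0.0073 by edgeR). Thbs2, thrombospondin 2, stood at 2.45 to 3.58 CPM against 7.21 to 17.0 CPM. Sparc, the most abundant matrix gene per kb, was not called (log2 fold change 0.45, adjusted p = 0.129 by edgeR). Dpysl3, a cytoskeletal protein of neurons and muscle, and Pls3, an actin-bundling protein, were among the 5 genes with the smallest p for a rise without EtOH replicates 3 and 4. Dpysl3 stood at 8.34 to 10.2 CPM in PF mice and 22.02 to 34.9 CPM in EtOH-fed mice, and Pls3 at 8.81 to 9.9 CPM against 19.7 to 36.0 CPM. Beside these lists, the 10 general epithelium genes held no called member by edgeR, with 3 at an unadjusted p under 0.05 and 2 called by DESeq2, and summed to 17929 to 24800 CPM in PF mice and to 14443 to 22060 CPM in EtOH-fed mice.

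The combination of Hox genes that a cell expresses marks position along the body and gut axis. Of 39 members, 16 were tested, and 8 of these were called higher and 0 lower (50%, against 23.2% of all genes). Hoxb8, Hoxb9 and Hoxd8 were under 1 CPM in at least 1 PF mouse. They could thus pass the filter on low counts only with EtOH-fed mice, in which they were higher. Their calls are among the 8, so that the share of 50% carries that limit. Of the 8, 7 are genes of the Hoxb cluster, and the other is Hoxd8 (log2 fold change 1.78, and 0.99 without EtOH replicates 3 and 4, where it was not called, adjusted p = 0.112 by edgeR). Among those not called, Hoxc4 and Hoxc5, named with their values known, had log2 fold changes of -0.42 and -0.38. Hoxb3 stood at 4.48, 2.4, 4.82 and 2.59 CPM in PF mice and at 21.8, 23.5, 42.7, 43.7 and 20.2 CPM in EtOH-fed mice (log2 fold change 3.08, SE 0.36, adjusted p = 0.00538 by edgeR). Hoxb5 stood at 2.24 to 3.72 CPM against 15.4 to 33.1 CPM. Hoxb9 stood at 7.9, 0.283, 11.7 and 0.246 CPM in PF mice and at 58.9, 61.0, 98.6, 102 and 48.6 CPM in EtOH-fed mice (log2 fold change 3.87, SE 0.88, adjusted p = 0.0181 by edgeR). PF replicates 2 and 4, in which the ileal markers were near the bottom of their range, were the lowest for Hoxb9. EtOH replicates 3 and 4 were the highest for all 3 genes. Called higher were 7 members without EtOH replicates 3 and 4, 6 without all 4 libraries and 0 by edgeR without PF replicates 2 and 4, where 8 had an unadjusted p under 0.05.

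Among gut transcription factors, 7 of 22 tested members were called lower and 1 higher (36.4%, against 23.2% of all genes), with 7 lower and 0 higher without EtOH replicates 3 and 4, 4 lower and 1 higher without all 4 libraries, and 2 lower without PF replicates 2 and 4. Besides Gata4, Onecut2 and Nr1i3, Gata6, named with its values known, stood at 69.2 to 147 CPM in PF mice and at 38.2 to 56.9 CPM in EtOH-fed mice. Hnf4a, the most abundant member per kb, was not called, at 802 to 1135 CPM in PF mice and 888 to 1318 CPM in EtOH-fed mice.

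**Figure D5:**
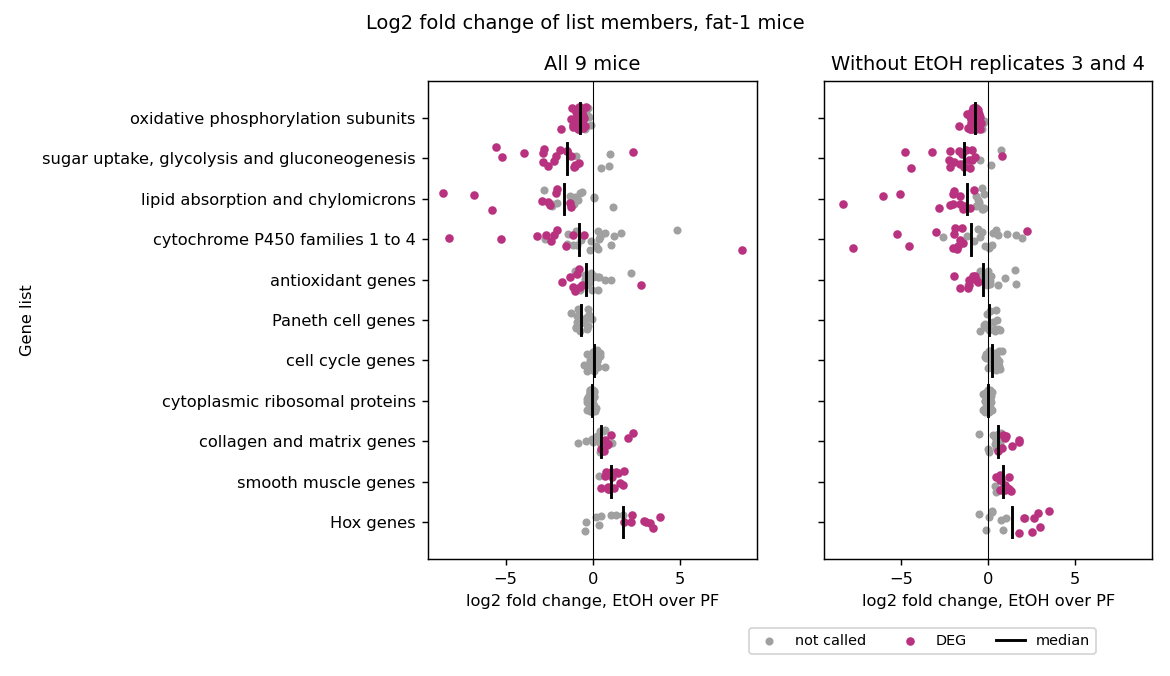
Log2 fold change of the tested members of 11 gene lists, EtOH over PF, 1 point per gene, in the fit of all 9 mice at the left and without EtOH replicates 3 and 4 at the right. DEGs are coloured and bars mark the medians, which for oxidative phosphorylation are -0.71 and -0.79 and for smooth muscle 1.08 and 0.81.

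In most of the largest rises EtOH replicates 3 and 4 stood highest. Retnlb, a goblet cell defence protein, stood at 0.213, 0, 0.688 and 0 CPM in PF mice and at 6.04, 1.22, 71.3, 63.2 and 6.64 CPM in EtOH-fed mice (log2 fold change 6.99, SE 1.62, adjusted p = 0.019 by edgeR), and at 4.31 it was still called without replicates 3 and 4 (adjusted p = 0.0256). Fa2h, fatty acid 2-hydroxylase, stood at 0.141 to 1.51 CPM in PF mice, at 5.26 to 12.3 CPM in EtOH replicates 1, 2 and 5 and at 176 and 198 CPM in replicates 3 and 4. Abca12, a lipid transporter, was at or under the level of 3 counts in PF mice, at 1.17 to 2.96 CPM in EtOH replicates 1, 2 and 5 and at 123 and 138 CPM in replicates 3 and 4, and was at least 140-fold higher over the group. Fa2h and Abca12 were called also without replicates 3 and 4 (adjusted p = 0.0157 and 0.0224 by edgeR). Retnlb and Abca12 were under 1 CPM in every PF mouse, and Fa2h was in all but 1. These 3 genes could thus pass the filter on low counts only with EtOH-fed mice, in which they were high, and their calls carry that limit. None of Retnlb, Fa2h and Abca12 was called without all 4 libraries (adjusted p = 0.125, 0.0631 and 0.059 by edgeR) or without PF replicates 2 and 4 (adjusted p = 0.189, 0.193 and 0.216 by edgeR). Their log2 fold changes were 3.37, 3.04 and 4.67 without all 4 libraries and 6.05, 6.38 and 9.5 without PF replicates 2 and 4, against 6.99, 6.81 and 8.59 in all 9 mice. The rises of Ccn3, 1810065E05Rik, 2610528A11Rik and Hao2 were not called without EtOH replicates 3 and 4 (adjusted p = 0.0571 to 0.109 by edgeR). Nxpe2 then did not pass the filter on low counts, while Ildr1 was called (adjusted p = 0.0181 by edgeR). Ccn3, Hao2 and Nxpe2 were also under 1 CPM in some or all PF mice and needed EtOH-fed mice to pass that filter.

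The list of PUFA and eicosanoid metabolism, the pathway that the transgene feeds, also took in enzymes of general fatty acid synthesis. It held 5 of 24 tested members higher and 1 lower, which is 25% against 23.2% of all genes. Called were 5 higher without EtOH replicates 3 and 4, 1 higher without all 4 libraries and 0 by edgeR without PF replicates 2 and 4, where 8 had an unadjusted p under 0.05. Besides Fa2h, Pla2g4c, a phospholipase A2 that frees fatty acids from membranes, stood at 5.87, 0.848, 8.81 and 1.48 CPM in PF mice and at 92.4, 109, 4.99, 3.54 and 167 CPM in EtOH-fed mice. Here the high mice were EtOH replicates 1, 2 and 5, and replicates 3 and 4 lay within the PF range (log2 fold change 4.14, SE 1.27, adjusted p = 0.044 by edgeR, and 4.85 without replicates 3 and 4, adjusted p = 0.0139). Ltc4s, leukotriene C4 synthase, was the member called lower, at 4.7, 23.5, 6.06 and 29.6 CPM in PF mice and 2.26 to 4.72 CPM in EtOH-fed mice. It was not called without EtOH replicates 3 and 4 (log2 fold change -2.25, and -2.21 in that fit, adjusted p = 0.0749 by edgeR). Without PF replicates 2 and 4, its highest libraries, the log2 fold change of Ltc4s was only -0.7 (adjusted p = 0.244 by edgeR). Elovl5, an elongase of PUFAs, named with its values known, stood at 28.8 to 42.9 CPM in PF mice and at 52.8 to 62.1 CPM in EtOH-fed mice (log2 fold change 0.7, SE 0.12, adjusted p = 0.00881 by edgeR). The desaturases Fads1 and Fads2, also named with their values known, had log2 fold changes of -0.11 (adjusted p = 0.76 by edgeR) and 0.69 (adjusted p = 0.101 by edgeR). Among 7 tested fatty acid receptors none was called by edgeR, with 2 at an unadjusted p under 0.05 and 2 called by DESeq2. Without EtOH replicates 3 and 4, edgeR called 1 of them higher. Ppard, a nuclear receptor for fatty acids and the most abundant per kb, stood at 168 to 213 CPM in PF mice and 130 to 205 CPM in EtOH-fed mice.

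Of 16 tested goblet cell and mucin genes, 3 were called higher and 1 lower, which is 25% against 23.2% of all genes, with 2 higher and 1 lower without EtOH replicates 3 and 4 and 0 higher and 1 lower without all 4 libraries. Muc2, the main secreted mucin, stood at 1029, 601, 1271 and 1082 CPM in PF mice and at 1616, 1741, 8282, 7670 and 1327 CPM in EtOH-fed mice (log2 fold change 2.05, SE 0.65, adjusted p = 0.0491 by edgeR, and 0.66 without replicates 3 and 4, adjusted p = 0.108). Clca1, a protein of the mucus layer, stood at 858 to 2428 CPM in PF mice and at 2550 to 4735 CPM in EtOH-fed mice, and Guca2b, uroguanylin, at 928 to 2131 CPM against 29.3 to 372 CPM. Zg16, a lectin of goblet cell granules and the most abundant member per kb, was not called (log2 fold change -0.56, adjusted p = 0.067 by edgeR). Of 25 tested genes of mucin O-glycosylation, which build the sugar chains of mucins, 7 were called higher and 2 lower (36%, against 23.2% of all genes), with 1 higher and 2 lower without EtOH replicates 3 and 4 and 0 by edgeR without all 4 libraries, where 6 had an unadjusted p under 0.05. St6galnac6, a sialyltransferase, stood at 485 and 386 CPM in EtOH replicates 3 and 4, at 10.4 to 12.4 CPM in the other EtOH-fed mice and at 4.38 to 8.77 CPM in PF mice. Its log2 fold change was 4.74, and 0.8 without replicates 3 and 4, where it was not called (adjusted p = 0.0571 by edgeR). Of 18 tested tight junction genes, 2 were called higher and 1 lower, which is 16.7% against 23.2% of all genes. Without all 4 libraries 1 was called lower, and without PF replicates 2 and 4 none was by edgeR, where 3 had an unadjusted p under 0.05. Cldn8 and Cldn2, both claudins, had log2 fold changes of 3.35 and 1.48, and Cldn15, a claudin of the small intestine that lets sodium pass, had -1.71. Cldn2 was not called without EtOH replicates 3 and 4, with a log2 fold change of 1.48 there too (adjusted p = 0.085 by edgeR), while Cldn8 and Cldn15 were (adjusted p = 0.043 and 0.0187 by edgeR).

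Paneth cell genes held 0 of 16 called members by edgeR, 0 at an unadjusted p under 0.05 and 0 by DESeq2, and among Reg and inducible defence genes 2 of 17 were called higher and 1 lower, which is 17.6% against 23.2% of all genes, with 0 higher and 1 lower without EtOH replicates 3 and 4. Reg1, a secreted C-type lectin, stood at 91.1, 526, 6.88 and 582 CPM in PF mice and at 1.66 to 4.44 CPM in EtOH-fed mice. Its log2 fold change was -6.66, and -3.72 without all 4 libraries, where it was not called (adjusted p = 0.137 by edgeR). The list held 0 calls by edgeR in that fit, with 2 members at an unadjusted p under 0.05. Reg3b, an antibacterial lectin and the most abundant member per kb, was not called in all mice (log2 fold change -0.08, adjusted p = 0.956 by edgeR). Of 15 tested Toll-like receptor genes 4 were called higher and 0 lower (26.7%, against 23.2% of all genes), 2 higher without EtOH replicates 3 and 4, and 0 by edgeR without all 4 libraries, where 3 had an unadjusted p under 0.05. Tlr5, the flagellin receptor, stood at 0.275 to 0.848 CPM in PF mice, at 1.65 to 2.8 CPM in EtOH replicates 1, 2 and 5 and at 16.6 and 15.7 CPM in replicates 3 and 4 (log2 fold change 3.69, SE 0.9, adjusted p = 0.0221 by edgeR, and 1.93 without replicates 3 and 4, adjusted p = 0.0216). With every PF mouse under 1 CPM, Tlr5 passed the filter on low counts only through EtOH-fed mice, and its call carries that limit. Gasdermins and inflammasome genes held 4 higher and 3 lower of 22 (31.8%, against 23.2% of all genes), with 2 higher and 3 lower without EtOH replicates 3 and 4 and 1 lower without all 4 libraries. Gsdmd, the executor of pyroptosis, fell by 1.61 on the log2 scale (SE 0.3, adjusted p = 0.0096 by edgeR), from 428 to 903 CPM in PF mice to 149 to 310 CPM in EtOH-fed mice. Gsdmc2, Gsdmc3 and Gsdmc4 were called higher with log2 fold changes of 2.79, 3.11 and 2.48, and as near-identical neighbours their single values are uncertain. None of them was called without EtOH replicates 3 and 4, where the log2 fold changes were 1.77, 2.7 and 1.92 (adjusted p = 0.132, 0.0732 and 0.116 by edgeR). The 2 called higher in that fit were Aim2 and Naip6, named with their values known. Of 19 tested tuft cell genes 3 were called higher and 0 lower, which is 15.8% against 23.2% of all genes. Called higher were 5 without EtOH replicates 3 and 4, 1 without all 4 libraries and 0 by edgeR without PF replicates 2 and 4. In these fits 10, 14 and 4 members had an unadjusted p under 0.05. The median log2 fold changes were 0.76, 1.02 and 0.65, against 0.39 in all mice. Dclk1, the usual marker of tuft cells, stood at 7.85 to 13.4 CPM in PF mice and at 16.8 to 26.5 CPM in EtOH-fed mice (log2 fold change 0.97, SE 0.19, adjusted p = 0.0121 by edgeR).

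Of 15 tested enteroendocrine genes, 4 were called lower and 1 higher (33.3%, against 23.2% of all genes), with 3 lower and 1 higher without EtOH replicates 3 and 4 and 2 lower without all 4 libraries. Gip, the glucose-dependent insulinotropic hormone of the upper small intestine, stood at 25.8, 168, 38.5 and 114 CPM in PF mice, at 1.57 to 4.26 CPM in EtOH replicates 1, 2 and 5 and at 0 CPM in replicates 3 and 4. Cck, cholecystokinin, stood at 11.1, 35.2, 7.16 and 44.95 CPM in PF mice and at 1.5 to 3.31 CPM in EtOH-fed mice (log2 fold change -3.27, SE 0.55, adjusted p = 0.0081 by edgeR). Cell cycle (29 tested), crypt stem cell (14) and cholesterol synthesis (20) lists held no called member by edgeR, with 2, 3 and 2 members at an unadjusted p under 0.05, and 1, 2 and 1 called by DESeq2. B cell (14 tested), MHC class II (10), red blood cell (4) and pancreas acinar (1) lists held no called member by edgeR or DESeq2 and 0 at an unadjusted p under 0.05. Without EtOH replicates 3 and 4 none of these was called either, but 13 of the 14 B cell genes (median log2 fold change 2.4) and 3 of the 10 MHC class II genes had an unadjusted p under 0.05. Of 9 plasma cell genes 1, Sdc1, was called higher (11.1%, against 23.2% of all genes), and 0 by edgeR without EtOH replicates 3 and 4. The list leaned the other way, with a median log2 fold change of -0.39 and 3 members above 0. In it 4 members had an unadjusted p under 0.05, and DESeq2 called 2 lower and 1 higher. Jchain, the most abundant member per kb, was not called (log2 fold change -1.09, adjusted p = 0.0941 by edgeR). B cell genes nevertheless varied widely between mice, with sums of 14 to 124 CPM in PF mice and 129, 152, 14.7, 6.26 and 866 CPM in EtOH replicates 1 to 5.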

How the data were processed

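RNA of the ileum of 9 fat-1 mice was measured. The authors aligned reads to mm10 (GRCm38) with tophat2 2.0.13, guided by Ensembl build 82, and deposited raw read counts per gene made with htseq, without normalization; its version and strand setting are not given in the sources used here. If strand was not used, overlapping genes share reads. The table lists 21965 genes, none of them mitochondrially encoded, immunoglobulin or T-cell receptor genes. Symbols, positions and exon lengths came from GENCODE M21, from which 26 genes are absent.

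Counts were filtered (filterByExpr), scaled (TMM) and tested with the robust quasi-likelihood test of edgeR 4.0.16 in R 4.3.3, on the 9 libraries alone. A gene hardly counted in PF mice could pass this filter only through EtOH-fed mice, and the reverse held too. Calls of such genes carry that limit. P-values were adjusted after Benjamini and Hochberg at 0.05. Each p-value measures the spread between these libraries. A fold against a group at or under 3 counts in every library is a lower bound: the mean of the higher group over the mean level of 3 counts per library. The alternatives were all 16 libraries in one fit, DESeq2 1.42.0, limma 3.58.1 voom with quality weights, DESeq2 size factors, upper-quartile scaling, filters of at least 1 count in any mouse or at least 10 in every mouse, the replicate number as a block, and leaving out libraries singly or in the pairs that stood apart.

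Genes named were the 10 DEGs each way with the largest fold change (groups not overlapping, at least 10 CPM in the higher group), the 5 each way with the largest difference in CPM, the 3 called members of each of 49 lists with the largest change and the most abundant member per kb, and the 5 each way with the smallest p without EtOH replicates 3 and 4 (at least 10 CPM). The members and lists were chosen with earlier results of these data known. Correlations between deviations of mice with the same replicate number were 0.125, -0.0232, -0.0748 and -0.0316. Between mice with different numbers they ran from -0.152 to 0.189. With only 4 such values this cannot decide whether mice were paired, and the labels state no pairing. Promoters were those of RefSeq (GRCm38.p6), and figures were drawn with matplotlib. A few named genes are not reported here.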

Additional observations from a re-analysis of the deposited data

Results flagged for a closer look

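In 7 of 172 sets of 4 or 5 values (37 named genes and the sums of 49 lists, in each diet group), 1 mouse lay far from the others of its group on the scale of log2(CPM + 0.5). Chance flags about 1 in 20 such groups, and no explanation was tested. Car1 stood at 13.7 CPM in PF replicate 4, against 0 to 0.283 CPM in the other PF mice. Cnn1 stood at 94.7 CPM in PF replicate 3, against 67.2 to 70.0 CPM. Dpysl3 stood at 10.2 CPM in PF replicate 1, against 8.34 to 8.62 CPM. The summed MHC class II genes, which present antigen, stood at 5320 CPM in PF replicate 3, against 1463 to 1763 CPM in the other PF mice. The summed antioxidant genes stood at 5804 CPM in PF replicate 1, against 6536 to 6667 CPM. The summed cytoplasmic ribosomal proteins stood at 29167 CPM in PF replicate 3, against 22644 to 22919 CPM. The summed goblet cell and mucin genes stood at 17422 CPM in EtOH replicate 5, against 22828 to 24255 CPM in the other EtOH-fed mice.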

How the results depend on the processing

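With all 16 libraries in one fit, 5170 DEGs were called, 2578 higher and 2592 lower. Upper-quartile scaling gave 2428 higher. Without EtOH replicates 3 and 4 there were 1856 DEGs, 668 of them higher, and 732 of at least 2-fold. Without PF replicates 2 and 4 there were 21 DEGs, 0 higher and 21 lower, of which 21 were of at least 2-fold. Without all 4 there were 354 DEGs, 62 higher and 292 lower, and 229 of at least 2-fold. Leaving out single libraries gave 1156 to 3157 DEGs, 420 to 1538 higher, 736 to 1619 lower and 531 to 1471 of at least 2-fold. The lowest counts came without PF replicate 2 (1156), PF replicate 4 (1247) and EtOH replicate 3 (1723). With the replicate number as a block there were 738 DEGs, 301 higher and 437 lower, and 504 of at least 2-fold; EtOH replicate 5 shares its number with no PF mouse and adds nothing to that comparison. These fits also had fewer libraries or fewer degrees of freedom, and the cause of the changes was not tested. DESeq2, voom, size factors and both filters gave 2725 to 4164 DEGs. Of 126 named genes that were called, 126 were called with DESeq2, 125 with all libraries, 90 with voom, 84 of 123 tested without EtOH replicates 3 and 4, 58 without all 4 and 10 without PF replicates 2 and 4. No called gene among those named changed sign in any of these fits. At this depth, genes under about 0.4 CPM are not told apart from 0.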

Other observations

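T cell and intraepithelial lymphocyte genes held 1 of 20 tested members lower and 0 higher by edgeR (5%, against 23.2% of all genes), and their sum was 191 to 308 CPM in PF mice and 193, 116, 65.6, 66.3 and 483 CPM in EtOH replicates 1 to 5. Macrophage genes held 1 higher and 1 lower of 14 (14.3%), and EtOH replicate 5 had the highest sum, 926 CPM, against 397 to 663 CPM in PF mice. Adipocyte genes held 1 higher and 1 lower of 13 by edgeR (15.4%) and 6 higher and 2 lower by DESeq2, and 8 had an unadjusted p under 0.05 by edgeR. Their median log2 fold change was 1.28, with 11 of 13 above 0 and a sum of 2026 CPM in EtOH replicate 5 and 458 to 1010 CPM in the 8 other mice.

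Of 23 tested genes of the unfolded protein response, 4 were called lower and 2 higher, which is 26.1% against 23.2% of all genes. Trib3, a stress-induced pseudokinase, stood at 27.1 to 47.4 CPM in PF mice, at 7.51 to 10.2 CPM in EtOH replicates 1, 2 and 5 and at 0.749 and 0.726 CPM in replicates 3 and 4. Ern2, the IRE1 isoform of mucus-secreting epithelium, stood at 7.02 to 19.7 CPM in PF mice, at 20.7 to 21.8 CPM in EtOH replicates 1, 2 and 5 and at 82.6 and 49.6 CPM in replicates 3 and 4. Its log2 fold change was 1.81, and 0.92 without replicates 3 and 4, where it was not called (adjusted p = 0.0966 by edgeR). In that fit 2 members of the list were called lower and 0 higher. Of 17 tested clock genes, 2 were called lower and 0 higher, which is 11.8% against 23.2% of all genes. They were Dbp and Hlf, both PAR bZIP factors, with log2 fold changes of -1.41 and -1.83. These were -1.57 and -2.01 without EtOH replicates 3 and 4, where Hlf was not called (adjusted p = 0.0594 by edgeR), and without PF replicates 2 and 4 they were -0.67 and -0.75, with neither called (adjusted p = 0.188 and 0.25 by edgeR). Interferon-stimulated genes held 1 higher and 2 lower of 23 (13%, against 23.2% of all genes), and 0 higher and 1 lower without EtOH replicates 3 and 4. Immediate early genes held 1 higher and 2 lower of 10 (30%), 0 higher and 1 lower without EtOH replicates 3 and 4 and 0 by edgeR without all 4 libraries, where 5 had an unadjusted p under 0.05.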
